A study of Mus musculus with 24 samples.

Results

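The probes described here are those whose gene name on the array is Egr1, Egr2, Egr3, Egr4, Nr4a1, Nr4a2, Nr4a3, Nab1 or Nab2: 11 probes of 9 genes, among 41174 different probes on the array. Hippocampal RNA was measured on 24 Agilent 1-colour microarrays, 1 array for each C57Bl/6 mouse, in 6 groups of 4 mice. The groups were fear-conditioned mice aged 16 months (old fear), handled mice of 16 months (old control), fear-conditioned mice of 3 months (young fear), mice of 3 months that saw the chamber without a shock (context), mice of 3 months shocked at once on entry and then left to explore (shock-context), and handled mice of 3 months (young control). Fear conditioning was 3 min in a new chamber followed by a foot shock of 0.7 mA for 2 s, and RNA was taken 1 h after it. The labels name no genetic change in any group. The hippocampus was used whole, so fewer cells of a type and less RNA per cell cannot be told apart in any value given here.

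The Egr proteins are zinc finger transcription factors and the Nr4a proteins are orphan nuclear receptors, and both families are immediate early genes: their mRNA is made within minutes of neuronal activity, without new protein synthesis, through calcium, cyclic AMP and MAP kinase signals that act on CREB, serum response factor and their partners. In the hippocampus Egr1 (Zif268) is widely used as a mark of recent activity and is needed for late long-term potentiation, and Nr4a factors act in the consolidation of long-term memory. Nab1 and Nab2 bind Egr1, Egr2 and Egr3, mostly as corepressors, and Egr factors can in turn raise Nab2, which closes a feedback loop.

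Levels are log2 of the processed signal minus log2 of the 75th percentile of the same array, so a level of 0 equals that percentile and a difference of 1 is a ratio of 2. Slides 1 to 4 each carried 1 array of old fear, old control, young fear and young control mice, 16 arrays in all, and were scanned on the first scan day, when array 75th percentiles were 757 to 2137 signal units. Within that day the percentiles were 1543 to 2137 on young fear arrays and 892 to 1361 on young control arrays. They overlapped between old fear (1152 to 1732) and old control arrays (757 to 1667). The part of array brightness in the fear comparisons was not tested. The 8 context and shock-context arrays lie on slides 5 and 6 from a second scan day, with percentiles of 3101 to 8369, so that any difference between these groups and the control or fear groups cannot be told apart from the scan day. Within the young fear group, arrays 1 and 2 differed by a median of 0.114 log2 units over all probes tested and arrays 3 and 4 by 0.133, while arrays from different pairs differed by 0.210 to 0.306. The old fear group had 0.173 and 0.139 within those pairs and 0.199 to 0.252 across them. The labels do not say why, and results that lean on these pairs are given below within each slide and with the pairs modelled as blocks. All 11 probes were among the 38768 tested, a set that left out probes above background on fewer than 4 arrays, and a probe was called at a Benjamini-Hochberg adjusted p under 0.05 in a limma fit of all arrays.

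The upstream sequences of 4 of the members that were higher in young fear mice 1 and 2 than in mice 3 and 4 are shown. They are given for the elements through which activity acts on these genes. Each is the 250 bases before the start site (RefSeq, GRCm38.p6, 5′ to 3′), and capitals mark the CREB motif TGACG, read on both strands as TGACG or CGTCA, and the CArG box, the core bound by serum response factor.
Egr2, chr10:67537619-67537868, plus strand: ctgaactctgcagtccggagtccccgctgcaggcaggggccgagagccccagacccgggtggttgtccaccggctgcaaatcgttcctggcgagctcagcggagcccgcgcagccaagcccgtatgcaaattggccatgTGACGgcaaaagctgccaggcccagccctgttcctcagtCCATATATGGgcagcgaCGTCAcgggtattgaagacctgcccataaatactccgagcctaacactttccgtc
Egr4, chr6:85513590-85513839, minus strand: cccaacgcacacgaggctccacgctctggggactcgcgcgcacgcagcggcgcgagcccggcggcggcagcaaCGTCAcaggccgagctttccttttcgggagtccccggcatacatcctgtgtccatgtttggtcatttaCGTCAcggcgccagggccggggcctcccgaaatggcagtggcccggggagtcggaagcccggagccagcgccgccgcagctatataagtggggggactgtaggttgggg
Nr4a1, chr15:101266596-101266845, plus strand: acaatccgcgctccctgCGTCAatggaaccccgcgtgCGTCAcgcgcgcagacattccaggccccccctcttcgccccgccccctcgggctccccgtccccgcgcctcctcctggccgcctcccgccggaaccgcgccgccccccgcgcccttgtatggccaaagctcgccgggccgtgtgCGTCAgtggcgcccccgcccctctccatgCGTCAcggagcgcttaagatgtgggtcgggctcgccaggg
Nr4a2, chr2:57124004-57124253, minus strand: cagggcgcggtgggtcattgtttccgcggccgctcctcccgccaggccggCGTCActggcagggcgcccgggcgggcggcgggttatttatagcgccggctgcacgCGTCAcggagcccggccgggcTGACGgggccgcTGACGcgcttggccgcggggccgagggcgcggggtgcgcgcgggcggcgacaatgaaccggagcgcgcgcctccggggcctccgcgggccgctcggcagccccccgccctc
For Egr2 the window with most matches of 5 listed start sites is shown, and 3 of those windows overlap. Nr4a1 and Nr4a2 had 4 CREB motifs each, and so had Nr4a3 (chr4:48045055-48045304), a count reached by 0.137% of 32851 upstream windows in the same table. Egr2 and Egr4 had 2 CREB motifs each, against 3.90% of all windows with 2 or more and 17.8% with at least 1. The CArG box of Egr2 is present in 1.47% of windows. The Nab1 window (chr1:52500449-52500698) held 1 CREB motif and 3 Egr sites: 1 of GCGGGGGCG (2.57% of windows) and 2 of GCGTGGGCG (0.536% of windows). The Nab2 window (chr10:127666704-127666953) held no CREB motif, CArG box or Egr site. The Nr4a1 window held 1 GCGGGGGCG, whose reverse complement lies within the printed letters. None of the 7 genes with a window had the full cyclic AMP response element TGACGTCA (1.55% of windows), which contains TGACG on both strands, or the Nr4a site AAAGGTCA (1.34%). These are matches of letters, searched on both strands, and not measured binding. Egr1, Nab2 and the brighter probes of Egr3 and Nab1 were also higher in young fear mice 1 and 2 than in mice 3 and 4, without a printed window. The same order held in old fear mice for Egr1, Egr2, Egr4, Nr4a1, Nab2 and the brighter probes of Egr3 and Nab1. Nr4a2 ran the other way in old fear mice. In both fear groups mice 1 and 2 lay on slides 1 and 2. Any part of these sites in the division of either group was not tested.

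Every member was detected, but at very different brightness. Egr1, Egr4, Nr4a1, Nr4a2, the brighter Egr3 probe, both Nab1 probes, Nab2 and Egr2 were well above background on all 24 arrays. The Nr4a3 probe was above background on 21 of 24 arrays, with processed signals of only 20.9 to 72.4 units, and the dimmer Egr3 probe on 23, with 45.8 to 106 units. The median signal of the brightest member, Nr4a1, was 23021 units. The brighter of the 2 Egr3 probes lies at chr14:70481979-70482038 in mm9. The Nr4a3 probe maps to mm9 chr4:48080690-48083876, a span of 3187 bases for its 60 bases, and so crosses a splice junction. The sequence of the Nr4a2 probe (mm9 chr2:56960699-56960758), from coding sequence, is shown because it was the Nr4a member called in fear-conditioned against handled mice.
Nr4a2 probe: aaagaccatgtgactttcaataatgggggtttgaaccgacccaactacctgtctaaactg

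**Figure D1:**
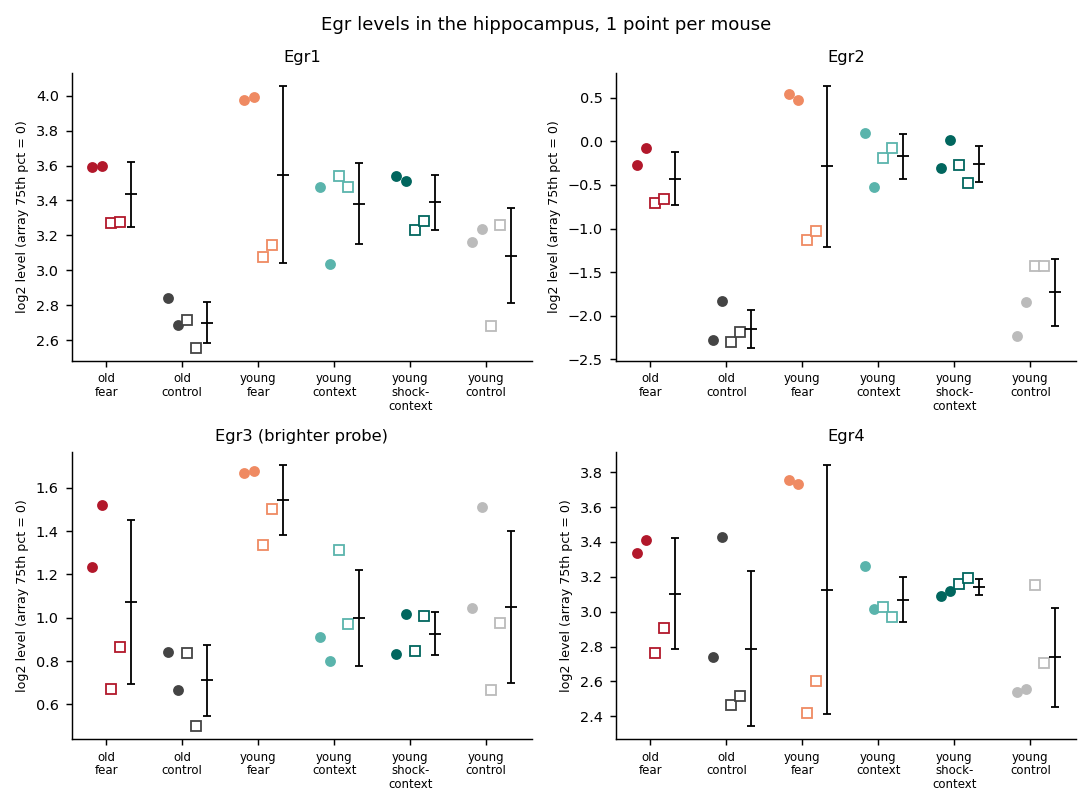
Log2 level of each Egr gene (y axis, array 75th percentile = 0) in each mouse of the 6 groups (x axis). Filled circles are arrays 1 and 2 of a group, open squares arrays 3 and 4, and the black mark with bars is the group mean and SD (n = 4). Young fear arrays 1 and 2 stand above arrays 3 and 4 for Egr1, Egr2 and Egr4.

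At 16 months, Egr2 rose after fear conditioning and was the only member called, 1 of 11 probes where 0.126% of all 38768 probes were called and 0.111% were called higher. At 3 months 5 of 11 member probes were called, 4 of them higher (Egr2, Nr4a2, the brighter Egr3 probe and the dimmer Nab1 probe) and 1 lower (the dimmer Egr3 probe). That share is read against a background of 44.6% of all probes called, 17.2% higher and 27.5% lower, with a median change over all probes of -0.27 at 3 months and -0.07 at 16 months. The median change of the main probes of the 9 genes was 0.36 at 16 months and 0.47 at 3 months. A main probe is the brighter one where a gene has more than 1. At each age 7 of 9 main probes had a positive change, and Nr4a3 was negative at both ages.

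Markers of neighbouring tissue differed between fear and control mice, those of choroid plexus at 3 months and those of thalamus at both ages. All 12 choroid plexus markers, each well above background on all 24 arrays, fell in young fear mice, with a summed level (in units of the array percentile) of 10.3 to 16.3, against 89.8 to 150.5 in young control mice. Among old fear mice 0 of 12 were called, with a sum of 87.7 to 99.8, against 91.8 to 145.7 in old control mice. Of 12 thalamus markers, 8 were higher and 1 lower in young fear mice, with a sum of 26.8 to 29.8, against 19.7 to 23.6 in young control mice. Among old mice 5 were higher and 0 lower, with 35.0 to 45.6 in old fear, against 23.5 to 28.5 in old control mice. Dentate gyrus markers had 2 of 6 higher and 1 lower in young fear mice (10.9 to 12.7, against 12.6 to 15.1 in young control mice) and 0 of 6 called in old fear mice. CA3 markers had 3 of 4 lower in young fear mice (24.2 to 29.7, against 35.3 to 38.0 in young control mice), and blood markers 3 of 3 (30.0 to 45.5, against 57.5 to 79.0). The sum of 6 hippocampal excitatory neuron markers was 194 to 204 in young fear mice, against 255 to 292 in young control mice, with 2 called higher and 1 lower. Endothelial markers summed to 7.46 to 8.47, against 10.6 to 14.96, with 2 of 5 called in each direction. Of these 4 lists 0 markers were called in old fear mice in limma. CA1 markers had 2 of 4 lower and 0 higher in young fear mice (46.7 to 76.6, against 75.8 to 93.4 in young control mice). Oligodendrocyte markers had 2 of 6 called in each direction (153.7 to 165.1, against 125.5 to 133.2). No CA1 or oligodendrocyte marker was called in old fear mice. The part of these shifts in the member results was not tested.

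Egr2 (Krox20), a zinc finger factor also known for its part in myelination by Schwann cells, had the highest fold change of the members at both ages. Its levels were -0.27, -0.08, -0.70 and -0.66 in old fear mice, against -2.28, -1.83, -2.30 and -2.19 in old control mice. Every old fear mouse stood above every old control mouse. The change was 1.72 ± 0.31 (log2, SE), or 3.30-fold, with a limma adjusted p of 0.0275 (95% interval 1.08 to 2.37), and it lay at the 99.8th percentile of all probes tested. The differences within slides were 2.01, 1.75, 1.60 and 1.53. The call did not hold in every setting: when array pairs were modelled as random blocks the adjusted p was 0.0881, without old control replicate 3 or 4 it was 0.0687 and 0.101, and without old fear replicate 1, 2, 3 or 4 it was 0.0681, 0.102, 0.0552 and 0.0769, while the change stayed between 1.61 and 1.83 with any 1 of the 8 arrays left out. The adjusted p was also above the threshold with the slide as a block (0.118), with the 8 compared arrays alone (0.0739) and with normexp background correction (1, with a change of 1.17).

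In young fear mice the Egr2 levels were 0.54, 0.48, -1.13 and -1.03, against -2.23, -1.84, -1.43 and -1.43 in young control mice. The groups did not overlap, which held for 42% of all probes, but young fear arrays 1 and 2 lay far above arrays 3 and 4, which were close to the controls. The change was 1.45 ± 0.31, or 2.72-fold, with an adjusted p of 0.000668. Within slides the differences were 2.77, 2.32, 0.29 and 0.40, all positive. Fits were then made with first-day arrays from slides 1 and 2 only, or from slides 3 and 4 only. This division was made after seeing the data. Each compared group had 2 arrays in them, so their p-values are descriptions. With slides 1 and 2 alone, in this sense, the change was 2.55 (adjusted p 1.51e-05). With slides 3 and 4 alone it was 0.35 (adjusted p 0.159). The SD of Egr2 within young fear mice was 0.92, against 0.21 to 0.38 in the other 5 groups.

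Egr1, the best known activity marker of the family, did not pass the test at either age. Its levels were 3.59, 3.60, 3.27 and 3.28 in old fear mice, against 2.84, 2.69, 2.71 and 2.56 in old control mice. These groups did not overlap, as was so for 7.68% of all probes, and the difference of 0.74 ± 0.19 (1.67-fold) had an unadjusted p of 0.000972 and an adjusted p of 0.133. In young fear mice the levels were 3.98, 3.99, 3.08 and 3.15, against 3.16, 3.23, 2.68 and 3.26 in young control mice. Here the groups overlapped, with arrays 3 and 4 of young fear inside the control range, and the difference of 0.47 ± 0.19 (1.38-fold) had an adjusted p of 0.0531. That p was 0.0126 without young fear replicate 3, 0.0193 without young fear replicate 4, 0.00125 after quantile normalization, 0.00236 in the deposited values and 0.029 with the slide as a block, but 0.10 with random blocks for the array pairs.

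Egr3, which like Egr1 is induced by synaptic activity, gave opposite answers from its 2 probes at 3 months. The brighter probe read 1.67, 1.68, 1.33 and 1.50 in young fear mice, against 1.05, 1.51, 0.67 and 0.98 in young control mice. The groups overlapped through 1 control mouse, and the rise of 0.50 ± 0.17 (1.41-fold) had an adjusted p of 0.0262. The call was lost without young control replicate 3 (0.108) or 4 (0.0578), without young fear replicate 1 (0.0678) or 2 (0.0668), and with random blocks for the array pairs (0.0692). The dimmer probe read -5.00, -4.93, -4.93 and -4.76 in young fear mice, against -4.23, -4.40, -3.70 and -3.69 in young control mice. Without overlap, it fell by 0.90 ± 0.20 (limma adjusted p 0.00104). Its unscaled processed signals did overlap, at 48.4 to 70.1 units in young fear and 55.2 to 106 units in young control mice. The array percentile that is subtracted was higher in young fear mice, and its part in this fall was not tested. With normexp background correction the adjusted p was 0.221. At 16 months neither Egr3 probe was called, with a change of 0.36 ± 0.17 (adjusted p 0.378) for the brighter and -0.18 ± 0.20 (0.724) for the dimmer.

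Egr4 (NGFI-C), first cloned as a gene induced by nerve growth factor, also split the young fear mice. It read 3.76, 3.73, 2.42 and 2.60 in young fear mice, against 2.54, 2.55, 3.15 and 2.70 in young control mice. Arrays 1 and 2 of young fear were the highest of the 8 and array 3 the lowest, and the mean difference of 0.39 ± 0.26 had an adjusted p of 0.232. Within slides the differences were 1.22, 1.18, -0.73 and -0.10. With slides 1 and 2 alone the change was 1.20 (adjusted p 0.000305), and with slides 3 and 4 alone it was -0.42 (adjusted p 0.0377), so both the call and its direction depended on which mice were used. Over all mice it was called after quantile normalization (0.64, adjusted p 0.0465) and in the deposited values (0.72, 0.0139). Old fear mice read 3.33, 3.41, 2.76 and 2.91, against 2.74, 3.43, 2.46 and 2.52 in old control mice, and the groups overlapped. The difference was 0.32 ± 0.26 (adjusted p 0.617).

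**Figure D2:**
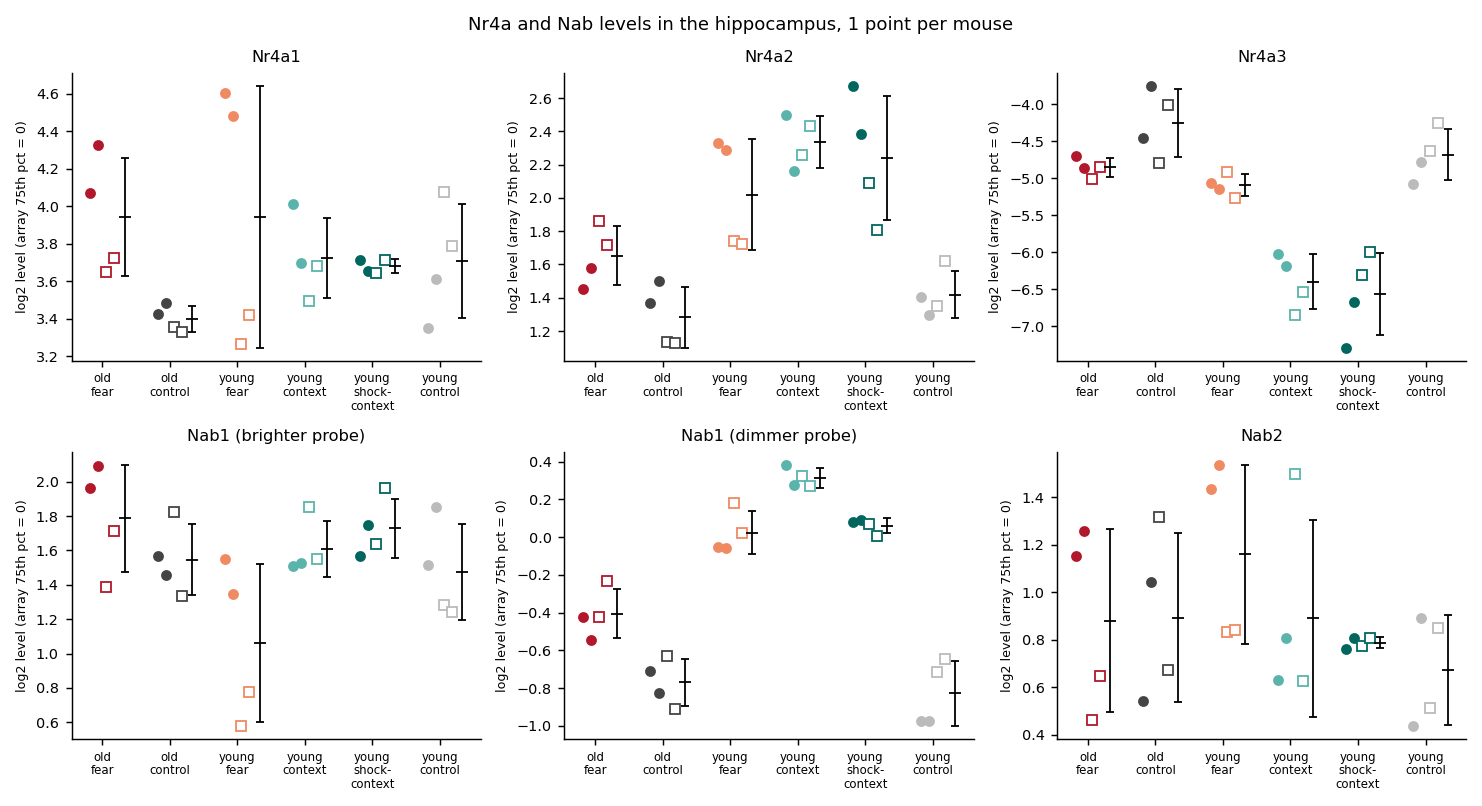
Log2 level of each Nr4a and Nab probe (y axis, array 75th percentile = 0) in each mouse of the 6 groups (x axis), drawn as for the Egr genes: filled circles for arrays 1 and 2, open squares for arrays 3 and 4, and group mean with SD (n = 4). Nr4a1 shows the same division of young fear mice as Egr4, and the dimmer Nab1 probe shows groups with little spread.

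Among the nuclear receptors, Nr4a2 (Nurr1), which is also needed for the development of midbrain dopamine neurons, was the one called in fear-conditioned against handled mice. Its levels were 2.33, 2.29, 1.74 and 1.72 in young fear mice, against 1.41, 1.30, 1.35 and 1.62 in young control mice. The groups did not overlap, and arrays 1 and 2 were again the higher pair. The rise of 0.60 ± 0.17 (1.52-fold) had an adjusted p of 0.00708, and it kept a p under the threshold without each of the 8 arrays in turn (0.00406 to 0.0330) and with random blocks for the array pairs (0.0193), but not after averaging the pairs (0.106). With slides 1 and 2 alone the change was 0.96 (adjusted p 0.00556), and with slides 3 and 4 alone it was 0.25 (0.399). In old fear mice Nr4a2 read 1.45, 1.58, 1.86 and 1.72, against 1.37, 1.50, 1.13 and 1.13 in old control mice. There was overlap, and the difference of 0.37 ± 0.17 was not called (adjusted p 0.357), although it was positive on 4 of 4 slides.

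Nr4a1 (Nur77), an early gene of T cells as well as neurons, was not called at either age. It read 4.61, 4.48, 3.27 and 3.42 in young fear mice, against 3.35, 3.61, 4.07 and 3.79 in young control mice. As with Egr4, arrays 1 and 2 of young fear were above all controls, array 3 below them all and array 4 above only 1 of them, and the mean difference of 0.24 ± 0.24 had an adjusted p of 0.417. By the same division made after seeing the data, the change was 1.06 with slides 1 and 2 alone (limma adjusted p 0.000304) and -0.59 with slides 3 and 4 alone (0.00772). After quantile normalization it was 0.59 over all mice (adjusted p 0.044), and in the deposited values 0.67 (0.0339). Old fear mice read 4.07, 4.33, 3.65 and 3.72, against 3.43, 3.48, 3.36 and 3.33 in old control mice. These groups did not overlap, and the difference of 0.54 ± 0.24 (1.46-fold) had an unadjusted p of 0.0334 and an adjusted p of 0.333.

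Nr4a3 (Nor1), the third receptor, had negative differences, -0.60 ± 0.25 at 16 months (adjusted p 0.315) and -0.41 ± 0.25 at 3 months (adjusted p 0.185). The probe is the dimmest of the 11, with signals of 39.7 to 60.4 units in old fear mice, against 56.1 to 70.6 units in old control mice. Young fear mice had 44.6 to 71.1 units, against 36.0 to 71.8 units in young control mice. On this unscaled signal the young groups covered nearly the same range.

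The corepressor Nab1 also had probes that differed. The dimmer probe (mm9 chr1:52515132-52515191) read -0.05, -0.06, 0.18 and 0.02 in young fear mice, against -0.97, -0.98, -0.72 and -0.65 in young control mice. The groups lay far apart relative to their spread, and the rise of 0.85 ± 0.09 (1.80-fold) had an adjusted p of 3.92e-07, the smallest of the members. In old fear mice it read -0.42, -0.55, -0.42 and -0.23, against -0.71, -0.83, -0.63 and -0.91 in old control mice. Those did not overlap either, but the difference of 0.36 ± 0.09 (1.29-fold) had an adjusted p of 0.128. The brighter probe (mm9 chr1:52514174-52514233) averaged 1.06 ± 0.46 in young fear mice and 1.47 ± 0.28 in young control mice (SD, n = 4 each), a difference of -0.41 ± 0.20 that was not called (adjusted p 0.0945), except without young fear replicate 1 (0.0247) and with slides 3 and 4 alone (-0.58, 0.0274). At 16 months it differed by 0.24 ± 0.20 (adjusted p 0.601).

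Nab2, the corepressor that Egr factors can induce, averaged 1.16 ± 0.38 in young fear mice and 0.67 ± 0.23 in young control mice, a difference of 0.49 ± 0.22 with an adjusted p of 0.0821. Its 4 young fear levels were 1.43, 1.54, 0.83 and 0.84, and the lower pair fell inside the control range of 0.44 to 0.89. It was called after quantile normalization (adjusted p 0.0471) and in the deposited values (0.0236). At 16 months the difference was -0.01 ± 0.22 (adjusted p 0.986).

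**Figure D3:**
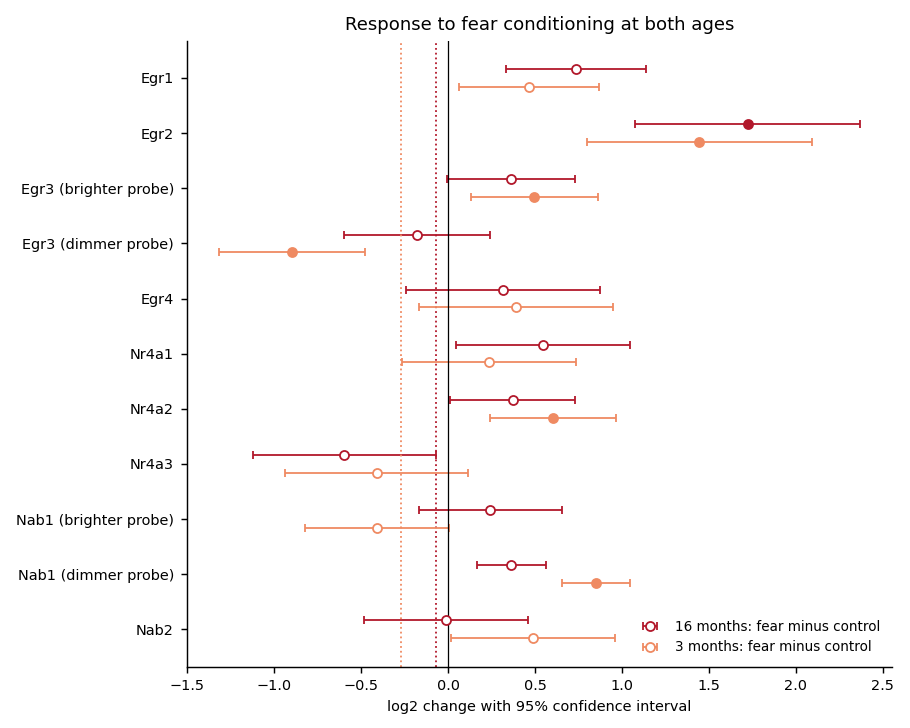
Log2 change after fear conditioning (x axis) with its 95% confidence interval for each member probe (y axis), at 16 months (upper mark of each pair) and 3 months (lower mark). Filled marks had an adjusted p under 0.05 and dotted lines are the medians over all probes, -0.07 at 16 months and -0.27 at 3 months; Egr2 lies farthest to the right at both ages.

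Set side by side, the Egr family had 1 of 5 probes called at 16 months and 3 of 5 at 3 months (2 higher), while the Nr4a family had 0 of 3 and 1 of 3. The shares over all probes were 0.126% at 16 months and 44.6% at 3 months. With one main probe per gene, the median change of the 4 Egr genes was 0.55 at 16 months and 0.48 at 3 months, and that of the 3 Nr4a genes was 0.37 and 0.24. The mean deviation of the 4 Egr genes from their young control means was 1.20, 1.19, 0.14 and 0.27 in the 4 young fear mice, and that of the 3 Nr4a genes was 0.48, 0.40, -0.12 and -0.19. Without the dim Nr4a3 probe, the Nr4a values were 0.91, 0.82, -0.06 and 0.0087. Also from the young control means, the old fear mice had 0.69, 0.83, 0.22 and 0.31 for Egr and 0.13, 0.20, 0.021 and 0.053 for Nr4a. On that scale old control mice had -0.25, -0.047, -0.36 and -0.44 for Egr and -0.032, 0.26, -0.25 and 0.0011 for Nr4a. Without Nr4a3, the Nr4a values were 0.20, 0.39, 0.19 and 0.16 in old fear mice. In old control mice they were then -0.16, -0.070, -0.32 and -0.33. The old response is thus read against old control values below 0 for Egr. Both families were thus highest in the same 2 young fear mice. Among old fear mice too, both were highest in mice 1 and 2, although Nr4a2 was lower there than in mice 3 and 4. The families share mice and arrays, and the difference between them was not tested. Over all 24 arrays, after taking off group means, the gene most like Egr2 among 16069 was Nr4a1, with a Pearson correlation of 0.92, and the reverse held too. These arrays share slides and brightness, so the value is a description. The genes most like the others were Tcf19 for Egr1 (0.88), Foxp1 for Egr3 (0.94), Kcna4 for Egr4 (0.95), Garnl3 for Nr4a2 (0.83), Klra5 for Nr4a3 (0.88), Txndc17 for Nab1 (0.96) and Zfp1 for Nab2 (0.91).

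**Figure D4:**
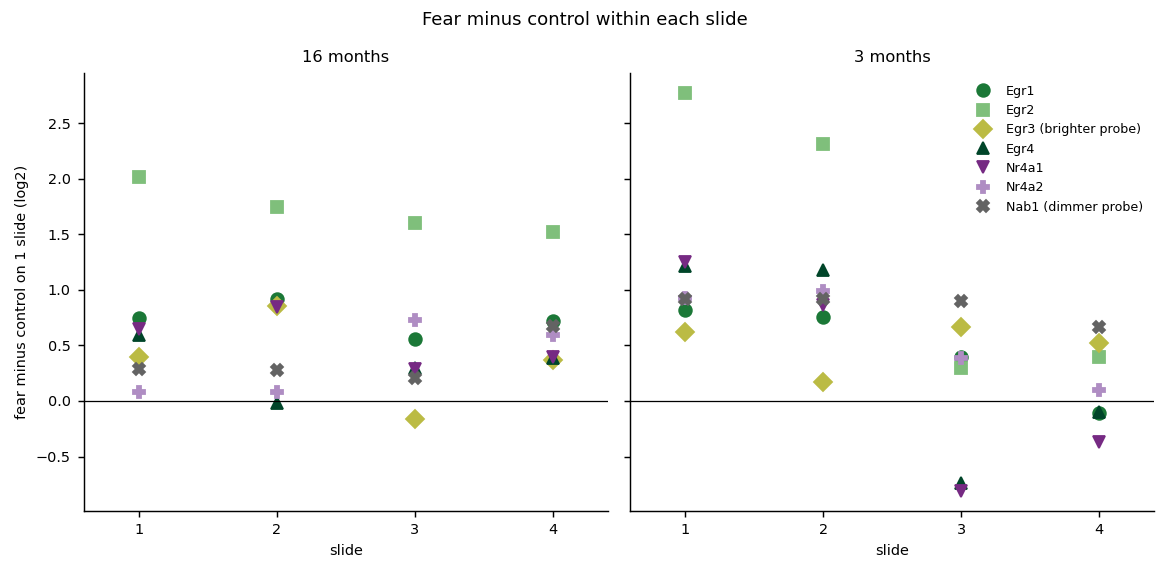
Fear minus control difference in log2 level (y axis) between the 2 mice of an age on each slide (x axis), at 16 months (left) and 3 months (right). Drawn are Egr1, Egr2, the brighter Egr3 probe, Egr4, Nr4a1, Nr4a2 and the dimmer Nab1 probe. The brighter Nab1 probe and Nab2, whose sign differed between slides at both ages, are not drawn, nor are the dim Egr3 and Nr4a3 probes. At 3 months Egr4 and Nr4a1 are at 0.87 or more on slides 1 and 2 and below 0 on slides 3 and 4; at 16 months Egr2 stays between 1.53 and 2.01.

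Whether the response to fear conditioning differed with age was tested as the old change minus the young change. One member probe was called, 1 of 11 against 25.9% of all probes (11.5% with a negative difference): the dimmer Nab1 probe, whose old minus young response was -0.49 ± 0.13 (adjusted p 0.00895). The call was kept without each of the 16 arrays in turn (0.00416 to 0.0234) and with random blocks for the array pairs (0.0369), and it was lost when the pairs were averaged (0.0861), with normexp background correction (0.315), in the deposited values (0.0812) and with slides 3 and 4 alone (-0.34, 0.158). The dimmer Egr3 probe (0.72, adjusted p 0.0692) passed the threshold without young control replicate 2 (0.0351) or old control replicate 2 (0.0463), and the brighter Nab1 probe without young fear replicate 1 (0.0292) or old fear replicate 3 (0.0422). For Egr2 the difference in response was 0.28 with a 95% interval of -0.64 to 1.19, for Egr1 0.27 (-0.30 to 0.84), for Nr4a1 0.31 (-0.40 to 1.01) and for Nr4a2 -0.23 (-0.74 to 0.28). These values depended on the mice used. For Egr2 the difference was -0.66 with slides 1 and 2 alone (adjusted p 0.170) and 1.22 with slides 3 and 4 alone (0.00648), and for Nr4a1 it was -0.32 (0.369) and 0.93 (0.00861). The slides were divided after seeing the data, so these p-values are descriptions. Without 1 of the 16 arrays the Egr2 difference was -0.0051 to 0.55. No member was called between old control and young control mice, 0 of 11 where 0.547% of all probes were. None had an unadjusted p under 0.05 in the limma fit. With so small a share of all probes called, this does not show equal levels. The largest of these differences among bright probes were those of Egr2 and Egr1, both lower in old control mice. They were -0.42 ± 0.31 (95% interval -1.06 to 0.23) for Egr2 and -0.38 ± 0.19 (-0.78 to 0.02) for Egr1.

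Between the trained groups, old fear against young fear, 4 of 11 member probes were called, against 39.9% of all probes, 22.9% higher and 17% lower. They were the probes of Egr3 and Nab1, and each gene had 1 probe in each direction. The brighter Egr3 probe was lower in old fear mice, at -0.47 ± 0.17 (adjusted p 0.0364, and 0.056 to 0.151 without young fear replicate 1, 2 or 4 or old fear replicate 3 or 4), and the dimmer one higher, at 0.70 ± 0.20 (0.00758). The brighter Nab1 probe was higher, at 0.73 ± 0.20 (0.00527), and the dimmer one lower, at -0.43 ± 0.09 (0.000882). The other members gave differences of -0.37 to 0.24, none of them called, although Nr4a2 was at 0.0494 without young fear replicate 4.

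Exposure to the chamber alone and shock before exploration gave member levels that the test could not separate. Of 11 probes 0 were called between context and shock-context mice, as was 0% of all probes, and 1 had an unadjusted p under 0.05, the dimmer Nab1 probe, at 0.25 ± 0.09 (p 0.0134, adjusted p 0.880). Egr2 read 0.10, -0.52, -0.19 and -0.08 in context mice, against -0.30, 0.02, -0.27 and -0.48 in shock-context mice. The groups overlapped, and the difference of 0.08 had a 95% interval of -0.56 to 0.73. Nr4a2 read 2.50, 2.16, 2.26 and 2.43 in context mice, against 2.67, 2.39, 2.09 and 1.81 in shock-context mice. Here too there was overlap, with a difference of 0.10 (-0.26 to 0.46).

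Against young control mice, measured on the other scan day, 5 member probes were called in context mice, 3 higher and 2 lower, where 68.8% of all probes were called, 18.4% higher and 50.4% lower. The same 5 probes were called in shock-context mice, in the same directions, where 65.4% of all probes were called, 16.1% higher and 49.3% lower. Egr2 was 1.56 ± 0.31 higher in context mice (adjusted p 0.000142) and 1.48 ± 0.31 higher in shock-context mice (0.000285). Nr4a2 was higher by 0.92 ± 0.17 (7.80e-05) and 0.82 ± 0.17 (0.000289). The dimmer Nab1 probe was higher by 1.14 ± 0.09 (2.77e-09) and 0.89 ± 0.09 (8.97e-08). Beside a median over all probes of -0.36 and -0.33, these 3 probes stood in every context and shock-context mouse above every young control mouse, as did 16.9% of all probes in context and 14% in shock-context mice. Egr1 differed by 0.30 ± 0.19 in context and 0.31 ± 0.19 in shock-context mice, and Nr4a1 by 0.02 ± 0.24 and -0.03 ± 0.24, none of them called, although Egr1 passed in both groups after quantile normalization (0.0109 and 0.0203).

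The other 2 called probes, the dimmer Egr3 probe and Nr4a3, were lower in both groups, at -2.03 ± 0.20 (context) and -1.75 ± 0.20 (shock-context) for Egr3 and at -1.72 ± 0.25 and -1.88 ± 0.25 for Nr4a3. These are the dim probes. The unscaled processed signal of the Egr3 probe was 48.4 to 106 units on the first scan day and 45.8 to 97.9 units on the second. That of Nr4a3 was 36.0 to 71.8 and 20.9 to 72.4 units. The array percentile that is subtracted was higher on the second day, and its part in these differences was not tested. In the deposited values, scaled by the submitters, the Nr4a3 difference in context mice was -0.03 (adjusted p 0.834), and after quantile normalization -0.32 (0.199). The dimmer Egr3 probe stayed called lower in context mice, at -0.28 in the deposited values (0.0409) and -0.85 after quantile normalization (0.00145). In shock-context mice it was at -0.12 in the deposited values (0.372).

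**Figure D5:**
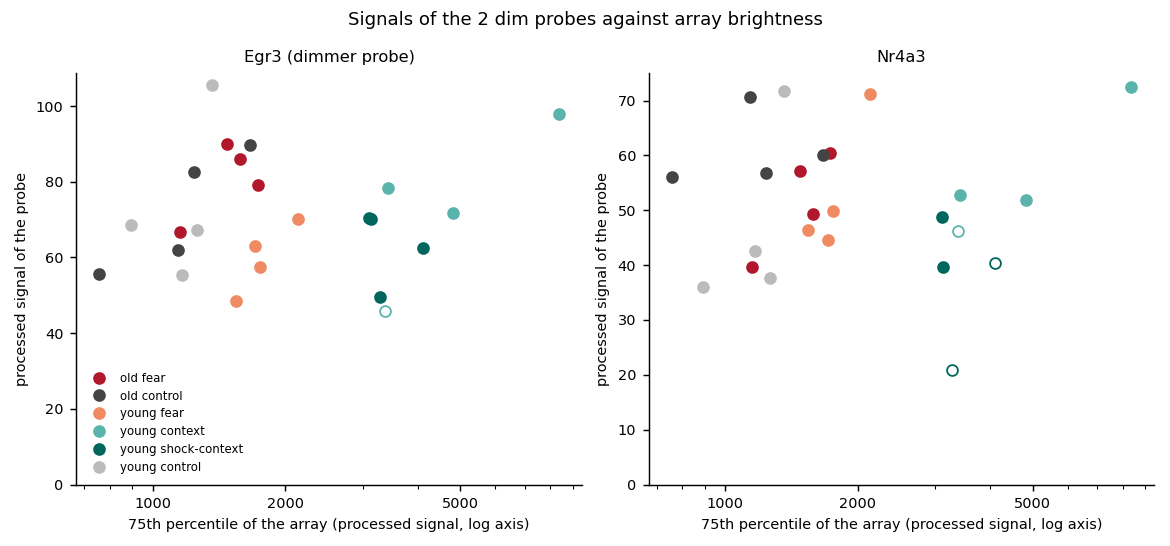
Processed signal of the dimmer Egr3 probe and the Nr4a3 probe (y axis, signal units) against the 75th percentile of the same array (x axis, log axis), 1 point per array. Open points were not well above background. The signals stay between 20.9 and 106 units while the array percentile runs from 757 to 8369.

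Young fear mice were then set against the groups that met only part of the training, again across the scan days. Against context mice 5 member probes were called, 3 higher and 2 lower, where 65.9% of all probes were called, 46.1% higher and 19.8% lower. Against shock-context mice 4 were called, 3 higher and 1 lower, where 64.9% of all probes were called, 46% higher and 18.9% lower. The brighter Egr3 probe was higher in young fear mice by 0.55 ± 0.17 than in context mice (adjusted p 0.00942) and by 0.62 ± 0.17 than in shock-context mice (0.00419). Its young fear levels of 1.33 to 1.68 lay above all context levels (0.80 to 1.31) and all shock-context levels (0.83 to 1.02), as 41.7% and 45.8% of all probes did. With median scaling neither difference was called (0.172 and 0.124). The brighter Nab1 probe was lower, at -0.55 ± 0.20 against context (0.0190) and -0.66 ± 0.20 against shock-context mice (0.00578), the first of them lost without young fear replicate 3 (0.0923) or 4 (0.0678) or context replicate 3 (0.064). The dimmer Nab1 probe was lower than in context mice, at -0.29 ± 0.09 (0.00974, but 0.173 with normexp and 0.0617 in the deposited values), and not called against shock-context mice. The dim Egr3 probe and Nr4a3 were called higher against both groups. After quantile normalization neither was called against either group, and their differences were -0.18 to 0.23. Egr2 did not differ in a way the test could see, by -0.12 (95% interval -0.76 to 0.53) against context and -0.03 (-0.68 to 0.62) against shock-context mice.

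By mean level over the 6 groups, Egr2 ran from context (-0.17) through shock-context (-0.26), young fear (-0.29) and old fear (-0.43) to young control (-1.73) and old control (-2.15). Only the step between old fear and young control separated neighbours whose ranges did not overlap. For Egr1 the order was young fear (3.55), old fear (3.44), shock-context (3.39), context (3.38), young control (3.08) and old control (2.70), with overlap at each step. The 6 group means of Egr4 spanned 2.74 to 3.14, with overlap at every step. Nr4a2 went from context (2.34), shock-context (2.24), young fear (2.02) and old fear (1.65) to young control (1.42) and old control (1.28), and each neighbour overlapped the next.

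Other genes of these pathways, in lists chosen with earlier results known, were counted in the same fit. Of 40 other immediate early genes, 38 were measured. In young fear mice 8 rose and 9 fell, where 17.2% of all probes rose and 27.5% fell. Their median change was 0.03 against -0.27 over all probes. In old fear mice 1 rose and 0 fell, where 0.111% of all probes rose (median 0.13 against -0.07). Klf6, with the smallest adjusted p of this list in young fear mice, changed by -1.08 ± 0.10 there (limma adjusted p 4.95e-08). Fos, the AP-1 subunit used as an activity marker, rose by 2.41 ± 0.29 in young fear mice (5.32-fold, adjusted p 1.29e-06) and by 1.78 ± 0.29 in old fear mice (3.44-fold, adjusted p 0.0123). Of 26 upstream kinases and factors 24 were measured, and 7 rose and 10 fell in young fear mice (17.2% of all probes rose and 27.5% fell), among them Camk4, a calcium-dependent kinase that acts on CREB, at -1.64 ± 0.16, and Rps6ka5 (Msk1), a kinase of CREB and histone H3, at 1.04 ± 0.14. At 16 months 0 of 24 were called in limma.

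Lists of reported target genes were counted likewise. They do not give the direction in which a factor acts on each gene. The counts therefore do not tell whether a change went with or against Egr or Nr4a action. Of 8 genes reported as Egr targets, 0 rose and 4 fell in young fear mice, where 27.5% of all probes fell, among them Psmb9, an immunoproteasome subunit, by -1.06 ± 0.13, and the GABA receptor subunit Gabra4 by -0.61 ± 0.11. At 16 months 1 rose and 0 fell: Sgk1, a serum- and glucocorticoid-induced kinase, by 0.76 ± 0.12 (adjusted p 0.0104). Of 6 genes reported as Nr4a targets, 0 rose and 3 fell in young fear mice against the same background. They were Slc6a3 (-0.86 ± 0.22), Slc18a2 (-0.45 ± 0.12) and Bdnf (-0.25 ± 0.09). The median over all probes was -0.27, so Bdnf did not fall below it. In old fear mice 0 of 6 were called. Of the 3 retinoid X receptors, partners of Nr4a1 and Nr4a2, Rxra fell by 0.57 ± 0.15 on the log2 scale in young fear mice and none was called in old fear mice. Arc and Bdnf stand in more than 1 of these lists.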

How the data were processed

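Per the labels' protocols, the authors labelled 600 ng of total RNA from each of 24 mice with Cy3 for 1-colour Agilent arrays. Per the file headers, the deposited signal intensity of each spot came from Agilent Feature Extraction 9.5.3.1, which had subtracted background and removed spatial trends but had not scaled arrays to each other. A deposited table of log2 values, normalized by the authors in a way not given in the sources used here, served as an alternative.

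Groups followed the sample titles. Outlier spots were dropped, spots of a probe averaged, and log2(processed signal) was set against the 75th percentile of each array. The 38768 probes above background on 4 or more arrays were tested with limma 3.58.1 in R 4.3.3 (6 group means, 18 residual degrees of freedom, two-sided, Benjamini-Hochberg over all probes). The number of arrays limits the precision. In simulated data for young fear against young control, run over 38358 probes, 41 of 50 probes raised by 1.5 (log2) were recovered. Of 50 raised by 0.75, 22 were recovered, and 3 of 38158 unchanged probes were called. Almost all simulated probes were thus unchanged, whereas 44.6% of all measured probes were called in that comparison. Simulated arrays shared no noise, but measured arrays correlated by 0.37 within array pairs and 0.18 within slides. These rates therefore do not describe the measured comparison. Replicate numbers are those of the labels, and on the first scan day they equal the slide numbers. Of 24 same-numbered pairs of control and fear arrays, 15 deviated together with a correlation over 0.1, in a range of -0.42 to 0.65. The main fit nevertheless had no block for slide or replicate number, and fits with such blocks are among the alternatives. Named genes are all member probes, up to 3 genes of smallest adjusted p of each list in each fear comparison, and the genes most alike by correlation. The members and lists were chosen with earlier results of these data known. Probe positions are those of the second array design (mm9), and promoters come from RefSeq (GRCm38.p6). The alternatives were other scalings, background corrections, filters and blocks, averaged pairs, subsets of arrays, and each array left out.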

Additional observations from a re-analysis of the deposited data

Results flagged for a closer look

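Of 66 combinations of a member probe and a group of 4 mice, 3 held a mouse set far from the other 3 by Dixon's test, where chance flags about 1 in 20. Egr1 read 3.04 in context replicate 2, below the other context mice. It read 2.68 in young control replicate 3, below the other young control mice, and the young fear difference without that mouse was 0.33 (adjusted p 0.189). The brighter Nab1 probe read 1.85 in context replicate 3, above the other context mice.

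The dimmer Nab1 probe differed between the ages in its response to fear conditioning, by -0.49 (log2, old response minus young response), in a test of the difference itself. Its change was 0.36 in old fear mice, not called (adjusted p 0.128), and 0.85 in young fear mice, called (3.92e-07), each against the control mice of that age. It was 1 of 11 member probes called for the age difference, where 25.9% of all probes were called. The brighter Nab1 probe went the other way, at 0.65, and was not called (limma adjusted p 0.0928). The call of the dimmer probe held in 13 of 17 settings. It was lost with normexp background correction, in the deposited values, with averaged pairs and with part of the slides alone.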

How the results depend on the processing

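The counts of called member probes moved with some choices. Young fear against young control (5 probes) gave 9 after quantile normalization and in the deposited values, 3 with one probe per gene and 2 with array pairs averaged. Old fear against old control (1) gave 0 with normexp, with the slide as a replicate block, with pairs as a random block or averaged, with the compared arrays alone and with the first scan day alone. The age difference (1) gave 0 with normexp, deposited values, one probe per gene and averaged pairs, 2 with the slide as a random block, the compared arrays or the first scan day alone, and 3 with slides 1 and 2 or slides 3 and 4 alone. Old fear against young fear (4) gave 1 with normexp and 2 with one probe per gene or averaged pairs. Old control against young control (0) gave 2 with slides 3 and 4 alone. Context and shock-context against young control (5 each) gave 8 with median scaling and 3 with one probe per gene. Young fear against context (5) gave 3 with quantile normalization or one probe per gene and 2 with normexp or deposited values, and against shock-context (4) it gave 2 with quantile normalization or normexp. Leaving out 1 array gave 4 to 6 for young fear against young control, 0 to 1 for old fear against old control, 1 to 2 for the age difference, 3 to 4 for old fear against young fear, 4 to 6 for young fear against context, and the unchanged count in the other 5 comparisons.

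Directions turned for the dimmer Egr3 probe in young fear against context (-0.022, deposited values) and against shock-context (-0.18, both with quantile normalization and in the deposited values), for Nr4a3 in young fear against shock-context (-0.0078, deposited values), and on slides 3 and 4 alone for Egr4 (-0.42) and Nr4a1 (-0.59) in young fear against young control and for Egr4 in the age difference (0.76). The cause was not tested. Of the other values, 2470 kept their sign and their side of the threshold and 118 changed sign without being called under either setting, while 56 passed the threshold and 68 lost it with their sign kept. Those 118 include the age difference of Egr2 (-0.66 on slides 1 and 2 alone) and of Nr4a1 (-0.32 there). With the replicate number as a replicate block, the Egr2 change at 16 months had an adjusted p of 0.0422 and Egr1 at 3 months 0.0357. Low signal limits the Nr4a3 probe and the dimmer Egr3 probe. Choices added after seeing the data were the replicate number, the first scan day and the slide subsets.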
